A study of Mus musculus with 6 samples.

Results

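The collagen genes of the mouse were followed in an array study of valproic acid (VPA) in murine prostate cancer cells. Every gene with a symbol made of Col, a type number, the letter a and a chain number was taken, with 1 probe set for each gene, and this gave 44 genes of the 19938 with a value. All 44 protein-coding collagen symbols of the RefSeq table (GRCm38.p6) were among them, carried by 46 probe sets. VPA, a drug given against epilepsy, inhibits class I histone deacetylases. RNA of 3 control and 3 VPA samples, labelled as biological replicates 1 to 3 in each group, was hybridised to Affymetrix mouse Gene 1.0 ST arrays. The sample titles give the groups as control and vpa prostate cancer cells. The other fields of the same samples name differentiated embryonic stem cells of strain 129SV for the control group and undifferentiated embryonic stem cells of strain Stra8-EGFP/Rosa26 for the VPA group. Groups are called by their titles here, and each difference rests on those titles. The sources used here do not give the dose, the duration, the name of the line or its genotype.

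Collagens are extracellular matrix proteins whose chains wind into a triple helix, which needs glycine at regular steps along each chain. They assemble into fibrils, into the sheet of the basement membrane, or into finer filaments that link the fibrils to cells. In the prostate the fibrillar types lie in the stroma, where fibroblasts and smooth muscle cells make them, and type IV underlies the epithelium. The values are log2 signals of probe sets, so that each gene is compared with itself between groups. The exception is a set of within-array ratios of type VI chains, given below, which are likewise compared between groups and not read as relative amounts.

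The cell types named by the labels were looked up by marker genes, whose probe set signals do not show on their own whether a gene was expressed. Of 9 prostate epithelial markers none passed limma's test over all genes, and the list mean lay between 6.31 and 6.54 in the control arrays and between 6.36 and 6.44 in the VPA arrays. Over the 6 arrays Hoxb13, a prostate lineage factor, lay between 7.86 and 8.04, Krt8, a luminal keratin, between 7.25 and 7.99, and Pbsn, which encodes the secretory protein probasin, between 3.41 and 3.76. Epcam was the only 1 of the 9 with an unadjusted p under 0.05, at a difference of 0.29 (limma adjusted p = 0.1). That is 11.1% of the list, against 9.82% of all genes higher at that p. Of 6 embryonic stem cell markers none passed, but all 6 had differences below 0, with a median of -0.20. At an unadjusted p under 0.05, 3 of the 6 were lower with VPA (50% against 8.3% of all genes): Pou5f1 by -0.36, Sox2 by -0.32 and Esrrb by -0.20. Their list mean lay between 6.61 and 6.72 in the control and between 6.31 and 6.56 in the VPA arrays, so that these groups did not overlap. That mean covers unlike signals: over the 6 arrays Sox2 lay between 10.98 and 11.71, Pou5f1 between 4.99 and 5.86 and Zfp42 between 4.13 and 4.43. Of 8 fibroblast markers Thy1 rose by 0.99 (limma adjusted p = 0.00973) and 7 did not pass, while 6 of the 8 had differences below 0. The groups were apart with VPA lower in 4 of the 8 (50% against 12% of all genes). At an unadjusted p under 0.05, 3 were lower (37.5% against 8.3% of all genes). These were S100a4 at -0.51, Pdgfrb at -0.36 and Fap at -0.30, with limma adjusted p of 0.119, 0.0924 and 0.141. The fibroblast list mean lay between 9.50 and 9.70 in the control and between 9.51 and 9.59 in the VPA arrays. Within that list Dcn lay between 13.98 and 14.13 over the 6 arrays and Lum between 4.04 and 4.24. Of the 8, 3 (Dcn, Fap and Lum) also stand in the collagen pathway lists below. None of 5 smooth muscle markers passed. At an unadjusted p under 0.05 Tagln was lower (-0.61) and Myh11 higher (0.24), 20% each against 8.3% and 9.82% of all genes. The smooth muscle list mean was 8.84 to 9.21 in the control and 8.80 to 9.18 in the VPA arrays. None of 5 endothelial and 4 leukocyte markers passed. At an unadjusted p under 0.05 the endothelial marker Tek was higher, by 0.42 (limma adjusted p = 0.182). That is 20% of its list, against 9.82% of all genes. The endothelial list mean was 6.795 to 6.96 in the control and 6.90 to 7.10 in the VPA arrays. For leukocyte markers it was 6.54 to 6.70 and 6.46 to 6.66. The part of these cell type markers in the collagen values was not tested, and in RNA from whole cultures fewer cells of a type and less RNA per cell cannot be told apart. Array medians lay between 7.15 and 7.18.

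With VPA 2 collagen genes of 44 fell, while 0 rose and 42 did not pass. Both that fell, Col6a2 and Col6a1, encode chains of type VI collagen. The test was limma's moderated test over all 19938 genes, with a gene called at a Benjamini-Hochberg adjusted p under 0.05, and it called 2.34% of all genes, 0.632% lower and 1.71% higher with VPA. The 2 calls are 4.55% of the collagen genes, and the count is too small to set against that background. At an unadjusted p under 0.05 there were 5 lower collagen genes, 11.4% of the family against 8.3% of all genes, and 1 higher, 2.27% against 9.82%. The groups did not overlap in 9 collagen genes that were lower with VPA, 20.5% against 12% of all genes, and in 3 that were higher, 6.82% against 11.1%.

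Most differences in the family were small. The median VPA minus control difference over the 44 genes was -0.10 on the log2 scale, against -0.04 over all genes, and it ran from -0.62 for Col6a2 to 0.22 for Col4a4. Differences lay below 0 in 32 collagen genes, 72.7% of them, against 58.6% of all genes. That share varied with level. All 44 collagen genes had a mean over the 6 arrays of at least 6, and of all such genes 54.5% lay below 0. Above the median level of all genes it was 67.9% of collagen genes against 45.1% of all genes. With arrays centred on their medians the count of collagen genes below 0 was 34, as Col28a1 and Col8a2 crossed 0. The typical standard error of a collagen difference was 0.0977. By class, differences were below 0 in 6 of 6 type VI chains, 9 of 9 fibril-associated collagens, 4 of 4 transmembrane collagens, 8 of 11 fibril-forming chains and 2 of 6 type IV chains, and above 0 in both multiplexins, the collagens with an interrupted helix and an endostatin-like end.

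**Figure D1:**
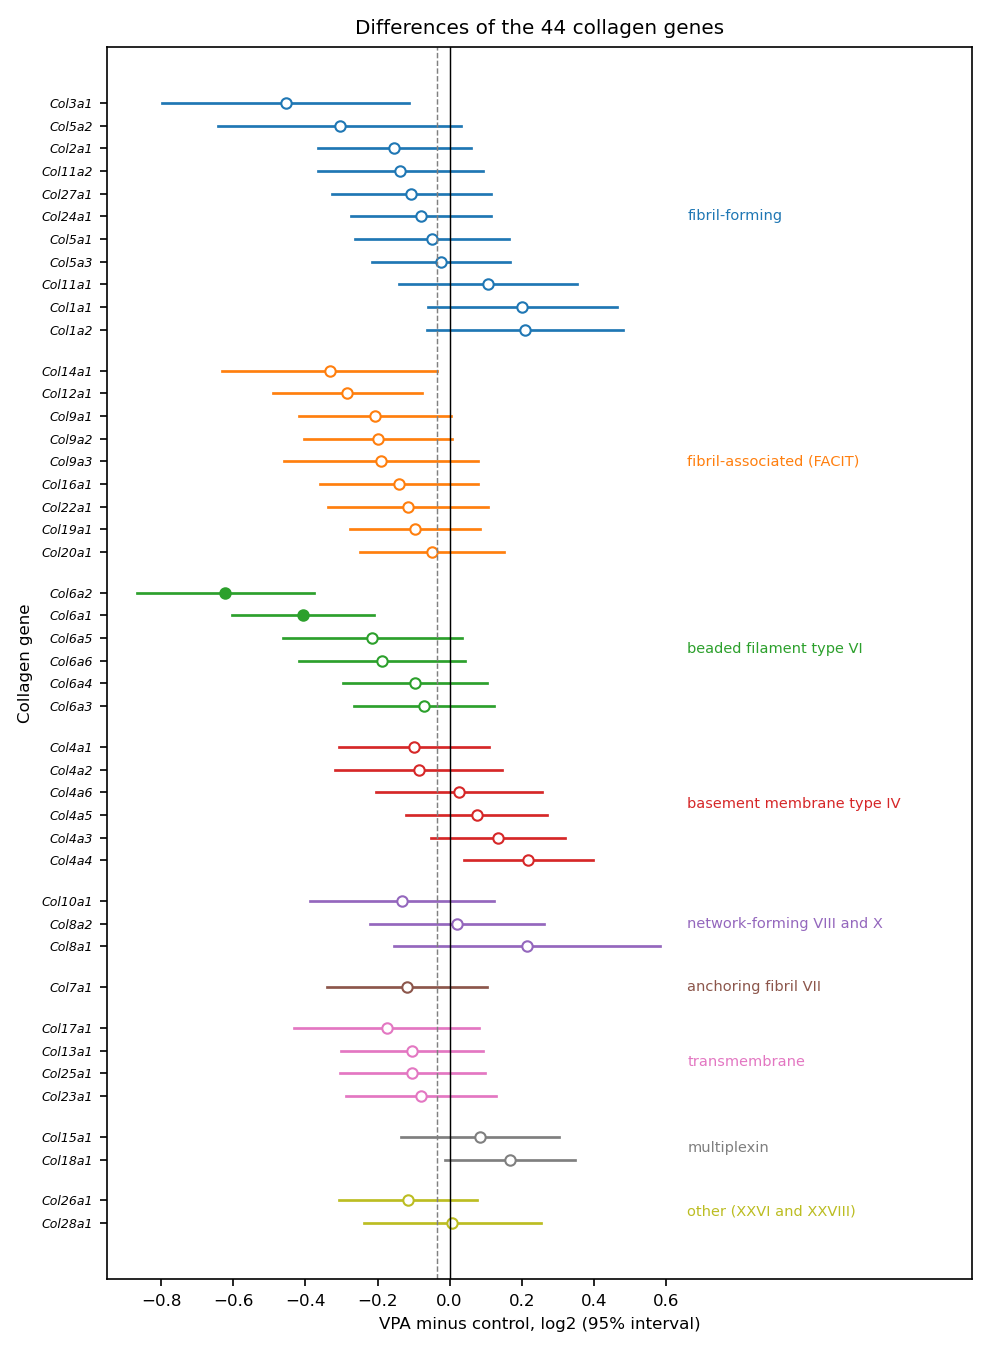
Points give the VPA minus control difference of each of the 44 collagen genes on the log2 scale, lines its 95% interval from limma (3 arrays per group), colours the class and filled points an adjusted p under 0.05. The solid line marks 0 and the dashed line the median of all genes, -0.04. The 2 filled points are Col6a2 and Col6a1, and both intervals lie below 0.

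**Figure D2:**
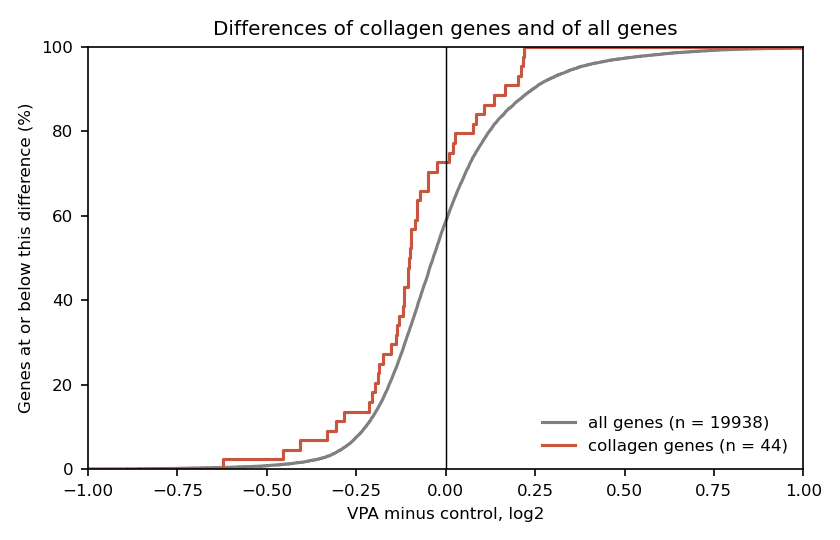
Lines give the cumulative share of genes, in percent, at or below each VPA minus control difference on the log2 scale, for 44 collagen genes and 19938 genes. The collagen line crosses 0 at 72.7% and that of all genes at 58.6%, and no collagen difference exceeds 0.22.

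Type VI collagen forms beaded filaments that anchor basement membranes and cells to the fibrillar matrix. Its unit is a trimer of the Col6a1 and Col6a2 chains with one further chain, which is that of Col6a3 or, in some tissues, of Col6a4, Col6a5 or Col6a6. Col6a2 had log2 values of 10.00, 10.05 and 10.21 in control replicates 1, 2 and 3 and of 9.38, 9.34 and 9.67 in VPA replicates 1, 2 and 3. All 3 VPA arrays lay below all 3 controls, with VPA replicate 3 nearest to them. The gene fell by 0.62 on the log2 scale (SE 0.11, 95% interval -0.87 to -0.38), from 10.09 ± 0.11 to 9.46 ± 0.18 (SD, n = 3 each), a level 1.54-fold lower, with a limma adjusted p of 0.0252.

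Col6a1 had values of 11.23, 11.16 and 11.16 in the control replicates and of 10.75, 10.68 and 10.89 in the VPA replicates. The groups again did not overlap and VPA replicate 3 was again the highest of its group. The gene fell by 0.41 (SE 0.0877, 95% interval -0.60 to -0.21), from 11.18 ± 0.04 to 10.77 ± 0.10 (SD, n = 3 each), a level 1.33-fold lower, with a limma adjusted p of 0.0479. Both calls depended on single arrays, though the differences themselves did not change sign. Leaving out control replicate 1 gave Col6a2 a limma adjusted p of 0.0784, control replicate 3 one of 0.0895, VPA replicate 1 one of 0.107 and VPA replicate 2 one of 0.104. For Col6a1 it was 0.174, 0.122, 0.163 and 0.18 in the same order, and leaving out control replicate 2 gave 0.0686, where Col6a2 still passed at 0.0404. Without VPA replicate 3 both passed, at 0.0105 and 0.033, with differences of -0.72 and -0.46. When the model was fitted anew to all 35556 probe sets and adjusted over them, the limma adjusted p was 0.152 for Col6a2 and 0.186 for Col6a1. That setting changed the fit as well as the adjustment.

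The chains that can complete the trimer did not pass. Over the 6 arrays Col6a3, Col6a4 and Col6a5 averaged 6.92, 7.39 and 7.02, under the all-gene median level of 7.59, and Col6a6 averaged 7.91. With no detection call, whether these signals lay above background was not tested. Col6a3 had values of 6.99, 6.90 and 6.98 in the control replicates and 6.82, 6.85 and 6.99 in the VPA replicates. VPA replicate 3 lay above every control, and the difference was -0.07 (SE 0.0864, 95% interval -0.26 to 0.12, adjusted p = 0.696). Col6a4 had 7.53, 7.40 and 7.39 against 7.25, 7.43 and 7.34, Col6a5 had 7.22, 6.97 and 7.20 against 6.82, 6.83 and 7.10, and Col6a6 had 8.07, 7.87 and 8.08 against 7.87, 7.67 and 7.93. Col6a4, Col6a5 and Col6a6 differed by -0.10, -0.21 and -0.19, with adjusted p of 0.597, 0.347 and 0.375 and overlapping groups. In both Col6a5 and Col6a6 control replicate 2 was the lowest control and VPA replicate 3 the highest VPA array. A second probe set of each of these genes differed by -0.05 and -0.06.

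**Figure D3:**
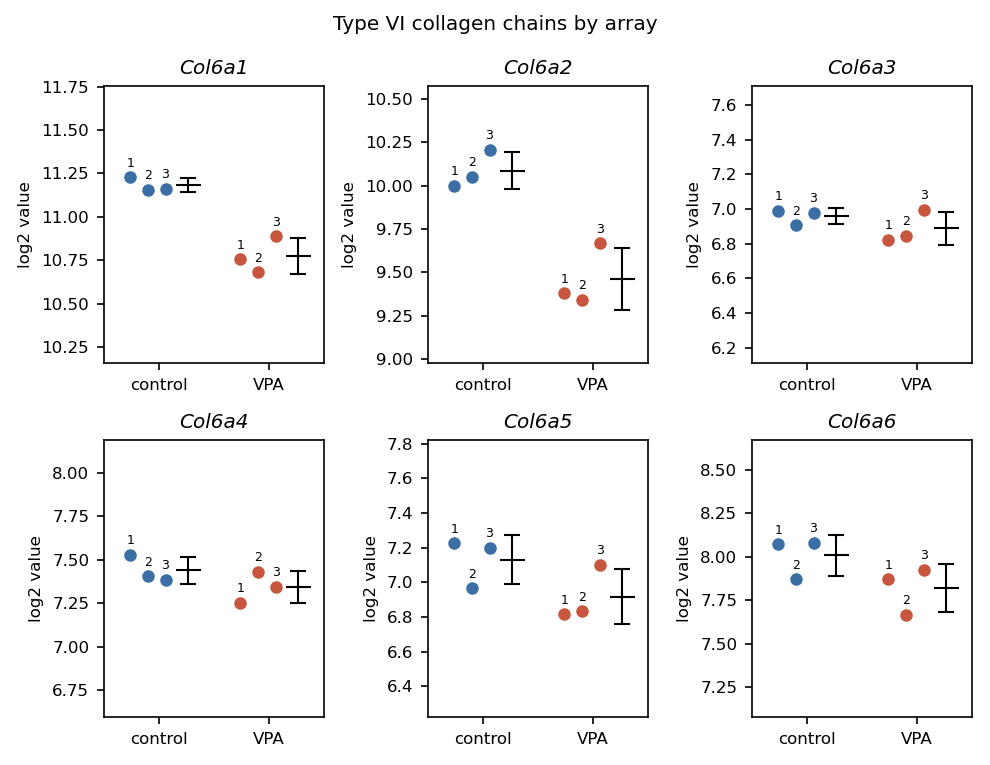
Points give the log2 value of each type VI collagen gene in the 3 control (blue) and 3 VPA arrays (red), with the replicate number above each point, and bars give the group mean ± SD. Every panel spans an equal width in log2 units around its own centre. In Col6a1 and Col6a2 the groups are apart, and in the other 4 genes they overlap.

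The signals of the 3 chains were also set as ratios within arrays. The ratios were chosen after the values were seen, so they describe these arrays and are no independent evidence that the chains differ. The log2 ratio of the Col6a2 signal to the Col6a3 signal was 3.01, 3.15 and 3.23 in the control replicates and 2.56, 2.50 and 2.67 in the VPA replicates. The ratio of Col6a1 to Col6a3 was 4.24, 4.25 and 4.18 against 3.93, 3.84 and 3.89. In both ratios every VPA array lay below every control array, by a mean of 0.55 and 0.34 (VPA minus control -0.55 and -0.34). The exact two-sided permutation test gave p = 0.1 for each (0.15 adjusted over the 3 ratios), which did not pass and is the smallest that 3 against 3 arrays allow. The ratio of Col6a2 to Col6a1 was -1.23, -1.10 and -0.95 against -1.37, -1.34 and -1.22, and these groups overlapped by a narrow margin (difference -0.22, exact p = 0.2, adjusted 0.2).

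The promoters of these 3 chains are shown because Col6a1 and Col6a2 hold the calls of the family and Col6a3 encodes their usual partner, which did not pass; a difference between the chains was not established. They are RefSeq sequences of GRCm38.p6, 300 bases around the annotated start, most of them upstream, on the gene's strand. Capitals mark matches on either strand to 4 short motifs: the TATA box TATAAA, the CCAAT box CCAAT, the GC box GGGCGG and the AP-1 site TGANTCA.
Col6a1, chr10:76725995-76726294, minus strand: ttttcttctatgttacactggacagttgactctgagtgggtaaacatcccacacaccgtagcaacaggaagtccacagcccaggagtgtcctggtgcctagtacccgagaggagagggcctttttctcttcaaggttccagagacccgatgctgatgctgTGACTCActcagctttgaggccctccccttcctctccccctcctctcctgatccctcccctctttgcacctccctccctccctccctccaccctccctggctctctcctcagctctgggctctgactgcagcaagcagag
Col6a2, chr10:76623355-76623654, minus strand: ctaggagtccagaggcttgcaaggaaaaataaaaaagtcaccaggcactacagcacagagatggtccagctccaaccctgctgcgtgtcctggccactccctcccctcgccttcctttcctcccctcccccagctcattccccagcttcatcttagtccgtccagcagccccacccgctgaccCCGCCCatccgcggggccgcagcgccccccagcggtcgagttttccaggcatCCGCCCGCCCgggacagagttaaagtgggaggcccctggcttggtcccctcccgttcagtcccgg
Col6a3, chr1:90843922-90844221, minus strand: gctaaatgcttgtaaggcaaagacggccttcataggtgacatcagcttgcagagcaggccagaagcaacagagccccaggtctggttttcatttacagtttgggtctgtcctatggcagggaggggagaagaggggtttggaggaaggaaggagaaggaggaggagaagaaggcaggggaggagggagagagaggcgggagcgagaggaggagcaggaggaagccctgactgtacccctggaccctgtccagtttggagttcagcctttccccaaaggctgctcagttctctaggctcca
The Col6a1 window held 1 AP-1 site, the Col6a2 window 3 GC boxes and the Col6a3 window no match to the 4 motifs. The windows held 3, 16 and 3 CG dinucleotides. For Col6a2 a second start is listed upstream, whose window (chr10:76623581-76623880) is not shown. It held 6 CG dinucleotides and 1 GC box, so the Col6a2 counts depend on the start chosen. Promoter windows were found for 35 of the 44 collagen genes, and not for Col1a1, Col2a1, Col4a3, Col5a2, Col9a3, Col12a1, Col14a1, Col22a1 and Col26a1. A GC box stood in 22 of the 35, or 62.9%, against 35.9% of 27025 windows of all genes, and the collagen windows were richer in G and C, with a median of 60% against 52.7%. The Col6a1 window was the only 1 of the 35 with an AP-1 match (2.86%, against 7.93% of all windows), TATA boxes stood in 14.3% against 14.2% and CCAAT boxes in 34.3% against 37.9%. A match to such short letters describes the window and does not show a bound site.

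In the RefSeq gene order 8 pairs of collagen genes had no other protein-coding gene between them. Both members had the same sign in all 8, which is read against a family with 72.7% of its differences below 0 and was not tested. Col6a5 stands in the pairs with Col6a6 and with Col6a4. The Col4a5 and Col4a6 pair lost its shared sign without control replicate 1, control replicate 2 or VPA replicate 1. There Col4a6 differed by -0.018, -0.004 and -0.0452, while Col4a5 stayed above 0. Col6a2 and Col6a1 are such a pair, read in the same direction on chromosome 10, and both fell. Beyond Col6a1, past Pcbp3 and Slc19a1, lies Col18a1, which differed by 0.17 (adjusted p = 0.309). The other pairs did not pass: Col3a1 and Col5a2 differed by -0.46 and -0.31, Col9a1 and Col19a1 by -0.21 and -0.10, and the chromosome 9 neighbours Col6a6, Col6a5 and Col6a4 are given above. The type IV pairs are described with their class.

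Among the fibril-forming collagens, which give tissues their tensile strength, none of 11 chains passed. Col3a1 alone was lower at an unadjusted p below 0.05 (9.09%, against 8.3% of all genes). This is the type III collagen of extensible tissues, with 9.24, 8.88 and 8.98 in the control replicates and 8.73, 8.23 and 8.77 in the VPA replicates. The groups did not overlap, but VPA replicate 2 lay well below the others. The difference was -0.46 (SE 0.153, 95% interval -0.80 to -0.11, limma adjusted p = 0.159). Col5a2, whose chain helps set fibril diameter, spread widely over the controls, at 9.44, 9.14 and 8.76, against 8.86, 8.79 and 8.76 with VPA. Control replicate 3 was level with the VPA arrays, and the difference of -0.31 did not pass (adjusted p = 0.32).

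The chains of type I collagen, the main collagen of bone, skin and stroma, had differences above 0 and did not pass. Col1a1 had 8.37, 8.18 and 8.18 in the control replicates and 8.68, 8.37 and 8.29 in the VPA replicates. Col1a2 had 8.05, 8.09 and 7.96 against 8.50, 8.20 and 8.03. In both chains VPA replicate 1 was the highest array and VPA replicate 3 lay within the range of the controls. The differences were 0.20 for Col1a1 (SE 0.117, adjusted p = 0.394) and 0.21 for Col1a2 (SE 0.121, adjusted p = 0.396), with intervals from -0.06 to 0.46 and from -0.06 to 0.48. Col11a1, at 11.59, 11.33 and 11.20 against 11.54, 11.41 and 11.50, differed by 0.11, and Col5a1, at 10.61, 10.71 and 10.49 against 10.64, 10.59 and 10.44, by -0.05. Both encode chains that nucleate fibrils, and in both the VPA values lay inside or close to the control range. Col5a3 had 7.53, 7.43 and 7.48 against 7.51, 7.36 and 7.50, and Col11a2 had 7.999, 7.816 and 8.002 against 7.901, 7.638 and 7.866, with overlapping groups in both. The cartilage chains Col2a1 and Col11a2 differed by -0.15 and -0.14, Col27a1 by -0.11, Col24a1 by -0.08 and Col5a3 by -0.02, with adjusted p from 0.421 to 0.906.

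**Figure D4:**
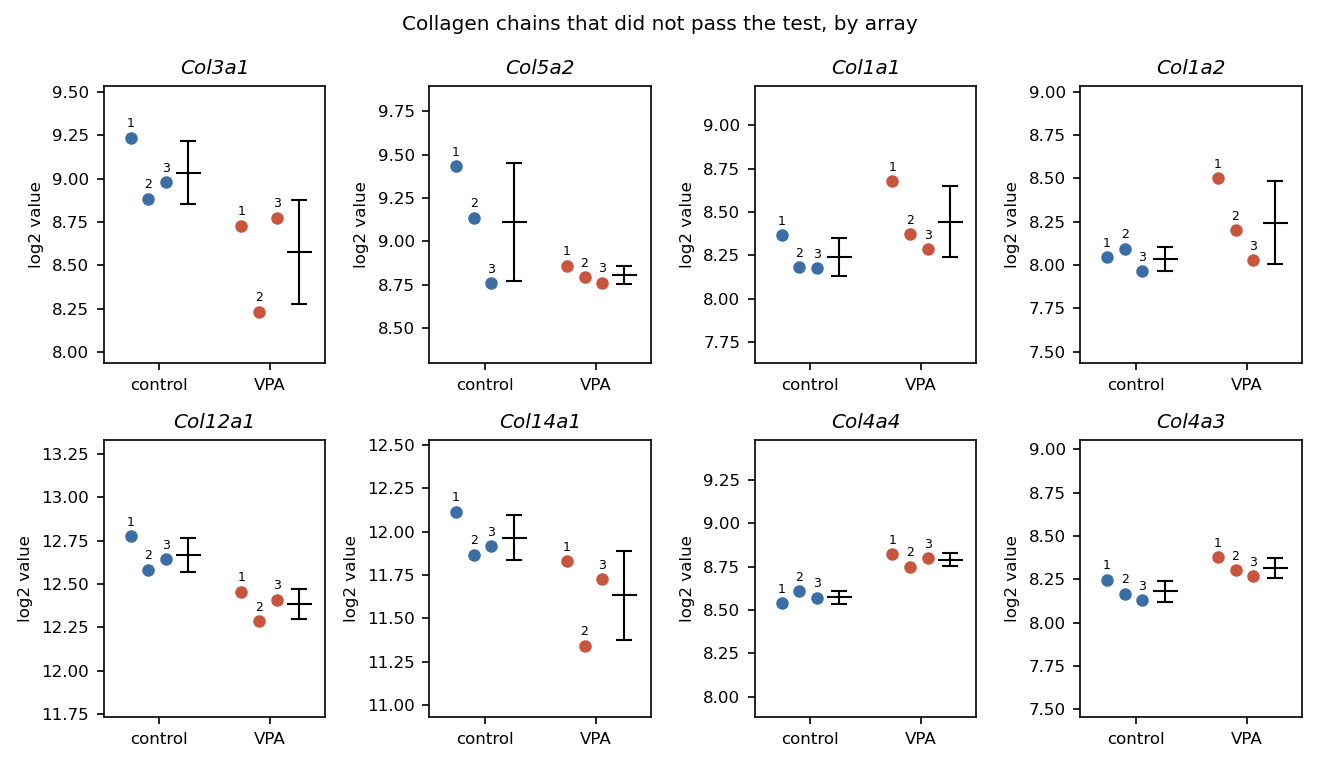
Points give the log2 values of 8 collagen genes in the 3 control (blue) and 3 VPA arrays (red), with replicate numbers above, and bars give the group mean ± SD. Every panel spans an equal width in log2 units around its own centre. Col3a1, Col12a1 and Col14a1 lie lower and Col4a4 and Col4a3 higher in every VPA array, and none of the 8 genes passed the test over all genes.

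Fibril-associated collagens decorate the surface of fibrils with short, interrupted helices. All 9 had differences below 0, from -0.33 to -0.05, and none passed. Of the 9, 2 were lower at an unadjusted p below 0.05, Col12a1 and Col14a1 (22.2%, against 8.3% of all genes). Col12a1, found in tendon and in stroma under tension, had 12.78, 12.58 and 12.64 in the control replicates and 12.46, 12.29 and 12.41 in the VPA replicates. Every VPA array lay below every control, and the difference was -0.28 (SE 0.0917, 95% interval -0.49 to -0.08, limma adjusted p = 0.146). Its relative Col14a1 had 12.11, 11.87 and 11.91 against 11.83, 11.34 and 11.73. VPA replicate 2 was again far below the rest, and the difference of -0.33 had an adjusted p of 0.225 (SE 0.133, 95% interval -0.63 to -0.04). The type IX chains of cartilage, Col9a1, Col9a2 and Col9a3, differed by -0.21, -0.20 and -0.19, with adjusted p of 0.285, 0.289 and 0.432. The groups did not overlap in Col9a1, Col9a2 and Col19a1 either, where VPA was lower, so that 5 of the 9 genes were apart (55.6%, against 12% of all genes). Col16a1, Col22a1, Col19a1 and Col20a1 differed by -0.14, -0.12, -0.10 and -0.05.

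Type IV collagen forms the network of the basement membrane, and its 6 genes stand in 3 pairs that are read away from each other from a shared start region. None of the 6 passed, and Col4a4 was higher at an unadjusted p below 0.05 (16.7%, against 9.82% of all genes). Col4a1 and Col4a2, whose chains form the type IV collagen of nearly all basement membranes, followed one another over the arrays. Col4a1 had 10.10, 10.00 and 9.93 in the control replicates and 10.04, 9.87 and 9.83 in the VPA replicates, and Col4a2 had 9.84, 9.66 and 9.63 against 9.79, 9.54 and 9.54. In each group replicate 1 was the highest for both genes and the groups overlapped. The differences were -0.10 (95% interval -0.31 to 0.11, adjusted p = 0.601) and -0.09 (95% interval -0.32 to 0.14, adjusted p = 0.688). Their promoter windows share 78 bases, shown because both genes start from this stretch in opposite directions, with the GC box in capitals.
Col4a1 and Col4a2 shared stretch, chr8:11312777-11312854, plus strand: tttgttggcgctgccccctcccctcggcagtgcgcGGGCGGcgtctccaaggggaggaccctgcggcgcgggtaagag
The stretch held 1 GC box and no CCAAT box.

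The minor type IV pair Col4a3 and Col4a4, known from the filtration barrier of the kidney, had higher values in every VPA array. Col4a4 had 8.54, 8.61 and 8.57 in the control replicates and 8.82, 8.75 and 8.80 in the VPA replicates, with no overlap. Its difference of 0.22 (SE 0.0795, 95% interval 0.04 to 0.40, limma adjusted p = 0.187) was the largest positive difference in the family and did not pass. Col4a3 had 8.25, 8.17 and 8.13 against 8.38, 8.30 and 8.27. These groups lay apart by a small gap, and the difference was 0.13 (SE 0.0832, adjusted p = 0.423). The X-linked pair Col4a5 and Col4a6 differed by 0.08 and 0.03 (adjusted p 0.676 and 0.916), with overlapping groups. Col4a5 had 7.96, 8.01 and 7.86 against 8.10, 8.01 and 7.95, and Col4a6 had 6.43, 6.46 and 6.67 against 6.69, 6.45 and 6.50.

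The remaining classes held no call. Of the short-chain network collagens, Col8a1, a vascular and remodelling matrix collagen, had 8.86, 9.03 and 8.56 in the control replicates and 9.37, 8.97 and 8.76 in the VPA replicates. It had the widest spread of any collagen gene within the VPA group (SD 0.307), and its difference of 0.22 did not pass (adjusted p = 0.518). Col8a2 and Col10a1, the collagen of hypertrophic cartilage, differed by 0.02 and -0.13. The multiplexins Col15a1 and Col18a1, proteoglycan collagens of basement membranes, differed by 0.08 and 0.17 (adjusted p 0.677 and 0.309), and Col18a1 was higher in every VPA array, at 7.74, 7.68 and 7.65 against 7.55, 7.54 and 7.48. The transmembrane collagens Col17a1, a hemidesmosome protein of basal epithelium, Col13a1, Col25a1 and Col23a1 differed by -0.18, -0.10, -0.10 and -0.08. Col7a1, which forms the anchoring fibrils of skin, differed by -0.12, Col26a1 by -0.12 and Col28a1 by 0.01, with adjusted p of 0.554, 0.502 and 0.976.

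Taken over the whole family, the control and VPA arrays overlapped. The median deviation of the 44 genes from their own mean over 6 arrays was 0.13, -0.03 and 0.06 in control replicates 1, 2 and 3 and 0.002, -0.13 and -0.01 in VPA replicates 1, 2 and 3. Control replicate 2 thus lay below VPA replicates 1 and 3, control replicate 1 was the highest array and VPA replicate 2 the lowest. Over all genes the same medians were 0.02, -0.01, 0.01, 0.01, -0.04 and -0.003, with the same arrays at the ends. The family median difference was -0.07 when control replicate 1 was left out, -0.06 when VPA replicate 2 was and -0.13 when VPA replicate 3 was.

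**Figure D5:**
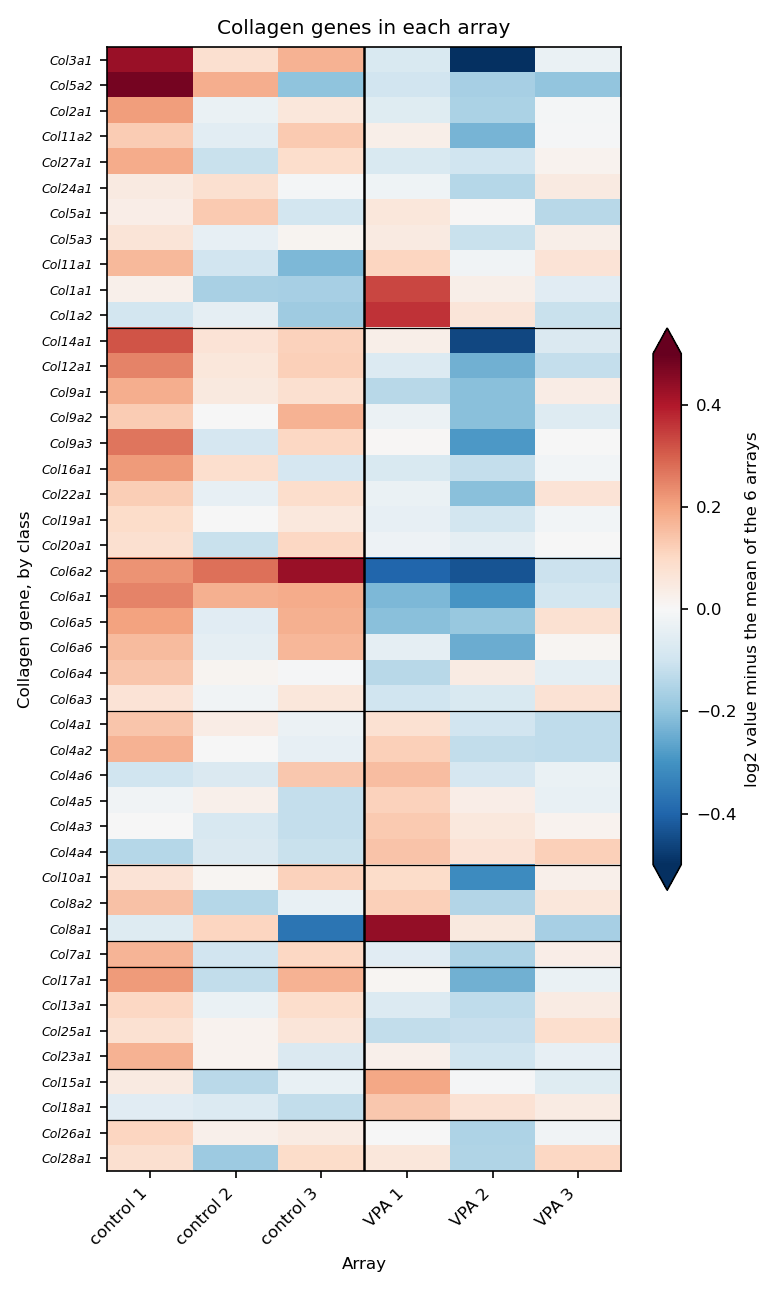
Colours give the log2 value of each of the 44 collagen genes in each array minus the gene's mean over the 6 arrays, red above and blue below it, with classes divided by lines and control and VPA arrays by the thick line. Col6a1 and Col6a2 are red in the 3 control arrays and blue in the 3 VPA arrays, and the column of VPA replicate 2 is blue for most genes.

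Genes that make, cut, crosslink, bind and degrade collagen were read from the same fit, in 6 lists. Of 92 measured genes in all none passed limma's test, while the unadjusted p was below 0.05 for 6 higher and 16 lower genes (6.52% and 17.4%, against 9.82% and 8.3% of all genes). In the list of chain hydroxylation, folding and glycosylation none of 21 passed, with 2 lower and 2 higher at that p (9.52% each). P3h3, of the prolyl 3-hydroxylase family, had 9.02, 8.86 and 8.71 in the control replicates and 8.25, 8.32 and 8.52 in the VPA replicates. The groups did not overlap, and the difference of -0.50 narrowly missed the threshold (SE 0.111, adjusted p = 0.0513). Creb3l1, a transcription factor released from the endoplasmic reticulum that activates type I collagen genes, had 8.34, 8.54 and 8.43 against 8.91, 8.89 and 8.76. Every VPA array was higher, and the difference of 0.41 also missed it (SE 0.0914, adjusted p = 0.0519).

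None of 12 genes of propeptide removal and crosslinking passed. At an unadjusted p under 0.05, 2 were lower and 1 higher (16.7% and 8.33%, against 8.3% and 9.82% of all genes). The lysyl oxidase genes Loxl3 and Lox, which crosslink collagen and elastin, differed by -0.45 and -0.48 (adjusted p 0.165 and 0.26). None of 15 collagen-degrading proteases and inhibitors passed, with 4 lower and 0 higher at that p (26.7% and 0%). The collagenase gene Mmp13 had 7.06, 7.55 and 7.48 in the control replicates against 6.78, 6.90 and 6.88, lower in every VPA array, and differed by -0.51 (adjusted p = 0.0789). Fap, a stromal protease that cuts denatured collagen, differed by -0.30 (adjusted p = 0.141).

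None of 12 collagen receptors passed. At an unadjusted p under 0.05, 3 were lower and 0 higher (25% and 0%, against 8.3% and 9.82% of all genes). Ddr2, a receptor tyrosine kinase for fibrillar collagen, differed by -0.28 and Antxr2, an anthrax toxin receptor that binds matrix collagens, by -0.29 (adjusted p 0.114 and 0.12), each lower in every VPA array. Of 15 collagen-binding matrix proteins none passed and 1 was lower at that p (6.67%). This was Sparc, a collagen-binding glycoprotein, at -0.20 (adjusted p = 0.251), followed by the small proteoglycan gene Fmod at -0.25 (adjusted p = 0.287). Among 17 laminins and other partners of type IV collagen none passed, with 4 lower and 3 higher at that p (23.5% and 17.6%). Agrn, which encodes the heparan sulphate proteoglycan agrin, had 8.52, 8.53 and 8.54 in the control replicates and 9.41, 8.90 and 8.95 in the VPA replicates, all higher, and differed by 0.55 (SE 0.13, adjusted p = 0.0622). Lama3, a laminin chain of epithelial basement membranes, differed by 0.54 (adjusted p = 0.0933). Of the 92 genes, 56 differences lay below 0, or 60.9%, against 58.6% of all genes.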

How the data were processed

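RNA of 3 control and 3 VPA samples was isolated with Trizol, treated with DNase I, biotin-labelled and hybridised to Affymetrix mouse Gene 1.0 ST arrays, per the labels' protocols. The authors deposited log2 values, and the submitters' processing notes name RMA and Affymetrix Expression Console, with no version. The sources used here name no genome build. RMA gives the arrays one distribution, so a shift of most genes would not show, and it leaves no detection call.

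Of 35556 probe sets, 21789 carried exactly 1 symbol, 1621 several and 12146 were not listed. The probe set with the highest mean over the arrays stood for each gene. Groups followed the sample titles. Genes were tested two-sided with limma 3.58.1 (lmFit, eBayes; R 4.3.3), with no term but the group and Benjamini-Hochberg adjustment over 19938 genes. Tested on simulated data with 200 of 19938 genes changed by 1 (log2), it recovered 89% with 8 false calls. The simulated noise was independent between genes and arrays. That change is larger than any collagen difference, the largest being -0.62, and recovery at smaller sizes was not tested. The number of arrays limits precision. Array values are given for collagen genes that were called, had an unadjusted p under 0.05, belong to types IV or VI, share a trimer family with types I, III, V and XI, or were among the 6 with the highest means. Each list is shown by the 2 genes with the smallest p. Array values of a few others (Col8a1, Col18a1) were added after they were seen. The 98 list entries, 92 of them measured, came from general knowledge. Members and lists were chosen with earlier results of these data known.

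The alternatives were array weights, testing all probe sets, averaging the probe sets of a gene, requiring log2 values of 6 or more in 3 arrays, a replicate block, median centring, a repeated quantile normalization, a trended and robust prior, and leaving out each array. The within-array ratios were added after the values were seen.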

Additional observations from a re-analysis of the deposited data

How the results depend on the processing

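The 2 collagen calls, Col6a1 and Col6a2, were made again under the filter on low values, a second quantile normalization, centring on array medians, a trended and robust prior, the mean of probe sets and array weights. With all probe sets tested 0 collagen genes were called (adjusted p 0.186 for Col6a1 and 0.152 for Col6a2), and without single arrays the count ran from 0 to 2. The count over all genes, 467, was 2 with all probe sets, 714 with array weights, and 20 to 815 without single arrays. The family median difference of -0.10 ran from -0.13 to -0.06 over all these settings. Of the 92 collagen pathway genes, 0 of which passed, 4 passed under the filter on low values and 4 under the trended and robust prior (P3h3, Creb3l1, Tmem38b and Agrn in both), 1 under a second quantile normalization and 1 under median centring (P3h3 in both), 3 with array weights and 0 to 5 without single arrays. The causes of these shifts were not tested.

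In the labels same-numbered arrays share only a number, and whether they were paired could not be settled here. Their deviations from the group means correlated at 0.08, 0.45 and 0.28 over genes. Each VPA array correlated best with the control of its number, while control replicate 1 correlated best with VPA replicate 3 (0.2). The other differently numbered pairs lay between -0.429 and 0.033. With the replicate number as a block 1199 genes were called over all, 3 collagen genes (Col3a1 added, adjusted p = 0.0353) and 9 collagen pathway genes. With 3 arrays per group and no measure of signal over background, small differences and dim probe sets remain unresolved.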
